A study of Mus musculus with 8 samples.

Results

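Sites lost in both perturbations are positions in the mouse genome where C/EBPα was called in every control liver library and in no library with Trib1 targeted or extra C/EBPα. To find them, the 200 bp peaks of all 8 lists were joined into sites where they overlapped by at least 1 bp. A site was kept when both Trib1_WT lists and both AAV_Null lists held a peak there and none of the Trib1_LSKO or AAV_Cebpa lists did. Of 113353 sites, 605 met this rule, which is 0.534% of all sites and 1.89% of the 31953 sites called in all 4 control lists (95% exact binomial interval 1.75% to 2.05%, which covers counting of sites only). The sites were chosen by the peak calls of these 8 lists, so their absence from the treated lists is a definition and not a result. For comparison with pairs of groups, 8.29% of the sites called in both Trib1_WT lists had no peak in either Trib1_LSKO list, and 16.0% of those called in both AAV_Null lists had none in either AAV_Cebpa list.

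The 4 groups held 2 libraries each, all from liver of 8 to 10 week old mice labelled strain C57B/6, fasted for 4 hours and given an adeno-associated virus (AAV) vector by intraperitoneal injection. Trib1_LSKO mice were Trib1 flox/flox animals given 1.5e11 gc of AAV_Cre, and Trib1_WT mice were Trib1 flox/flox animals given 1.5e11 gc of AAV_Null. AAV_Cebpa mice were wild-type animals given 1e12 gc of AAV_Cebpa, and AAV_Null mice were wild-type animals given 1e12 gc of AAV_Null. The 2 experiments thus differ in genotype and vector dose, and they have separate control libraries. All 4 lists of the Trib1 experiment held peaks on chromosome Y and no list of the vector experiment did, and the labels give no sex. The sources used here do not name the promoters that drive Cre and C/EBPα, or state if the replicates of a group were different mice. Lost means only that no peak was listed at that position.

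C/EBPα is a basic leucine zipper transcription factor that binds DNA as a dimer and is abundant in hepatocytes, where it acts on genes of lipid, glucose and amino acid metabolism. Tribbles-1, encoded by Trib1, is a pseudokinase that can bring C/EBPα to the ubiquitin ligase COP1, which leads to degradation of C/EBPα. Loss of Tribbles-1 and delivery of a C/EBPα vector are therefore both ways in which the amount of C/EBPα can be raised, although peak lists hold no protein or transcript level and neither was measured here.

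The lists held 46348 to 80394 peaks. The deposited signal values were whole multiples of a step that differed between libraries. The inverse of this step gives relative depth if all libraries were scaled to the same total, which the sources do not state. It was 1.18 and 1.28 in Trib1_LSKO, 1.14 and 1.93 in Trib1_WT, 1.85 and 2.27 in AAV_Cebpa, and 1.00 and 1.17 in AAV_Null. On this measure both AAV_Cebpa libraries were deeper than both AAV_Null libraries. Both Trib1_LSKO libraries were deeper than Trib1_WT replicate 1 and shallower than Trib1_WT replicate 2. The part of depth in the calls was not tested. The weakest listed peak held 7 to 12 tags, depending on the library. Signals below are those the authors gave each peak, and they are also expressed as percentiles of a list, in which 100 is the strongest peak. They place a peak within its own list. Percentiles of lists of different lengths are given side by side below, and a gap between them shows no change in binding.

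The sites lost in both were mostly weak in the control livers. Their median percentile was 30.3 and 33.2 in the Trib1_WT lists, and 34.2 and 34.9 in the AAV_Null lists. For all sites called in the 4 control lists, the same medians were 67.1, 68.3, 64.2 and 65.6. Low strength was not particular to loss in both. Sites of all 4 control lists lost only in Trib1_LSKO, with a peak in both AAV_Cebpa lists, had medians of 36.6, 36.7, 40.4 and 38.3. Those lost only in AAV_Cebpa, with a peak in both Trib1_LSKO lists, had 53.5, 57.5, 49.0 and 52.9. Median signals of the sites lost in both were 12.7 and 13.4 in Trib1_WT, and 15.2 and 16.3 in AAV_Null. This corresponds to 19, 34, 20 and 25 tags. Taken in each of these libraries separately, the lowest signal among the sites lost in both was 5.40, 4.70, 6.10 and 5.90. The weakest listed peaks in the same libraries had 4.70, 4.30, 6.10 and 5.20.

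**Figure D1:**
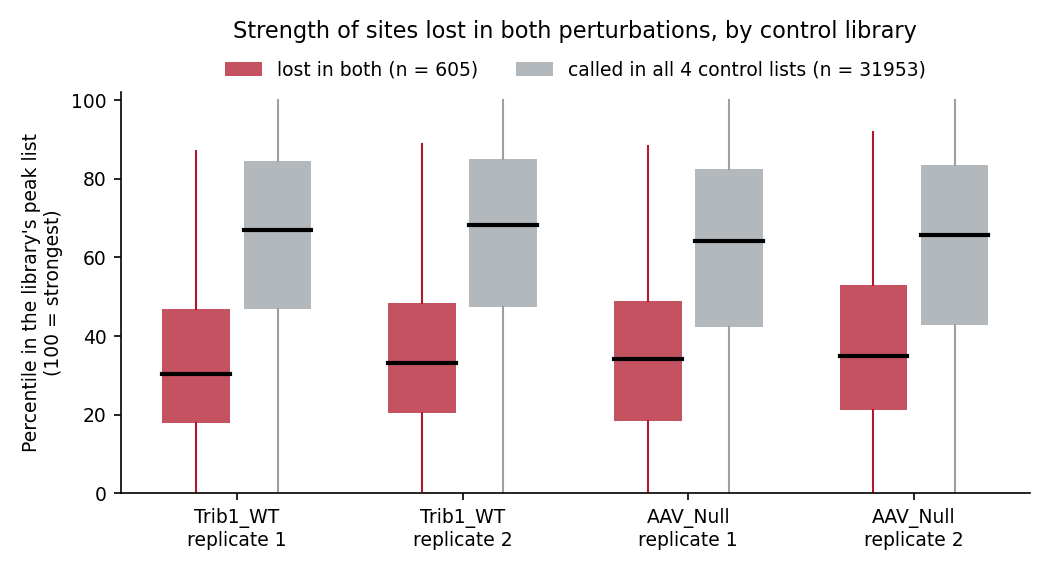
Percentile of each site in the peak list of each control library (y axis, 100 = strongest), for the 605 sites lost in both perturbations and for the 31953 sites called in all 4 control lists. Boxes span the quartiles, black bars are medians and thin lines reach the lowest and highest value. In each library the upper quartile of the lost sites (46.8 to 52.9) lay well below the median of all sites.

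The lost sites still spanned most of the range. Their mean percentile over the 4 control lists ran between 3.68 and 89.1, with a median of 31.9 against 65.2 for all sites called in the 4 control lists. In 363 of the 605, the site was in the weaker part of all 4 control lists, at or below percentile 50. In 66 (10.9%), it was in the strongest 50% of all 4. Only 3 had a mean percentile above 80, and none reached 90.

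The share of sites lost fell steadily with strength. Among sites with a mean percentile of 0 to 20, 137 of 1209 (11.3%) were lost in both. The share was 4.83% at 20 to 40, 2.22% at 40 to 60, 0.582% at 60 to 80 and 0.0325% at 80 to 100. Both single losses declined too. Sites with no Trib1_LSKO peak made up 19.8% of the weakest band and 0.0541% of the strongest, whereas sites with no AAV_Cebpa peak made up 25.3% and 1.39%. Over all strengths, 3.46% of the sites called in all 4 control lists were lost in Trib1_LSKO and 10.5% in AAV_Cebpa. These are descriptions of lists of unequal length, and the 2 declines were not compared by a test.

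**Figure D2:**
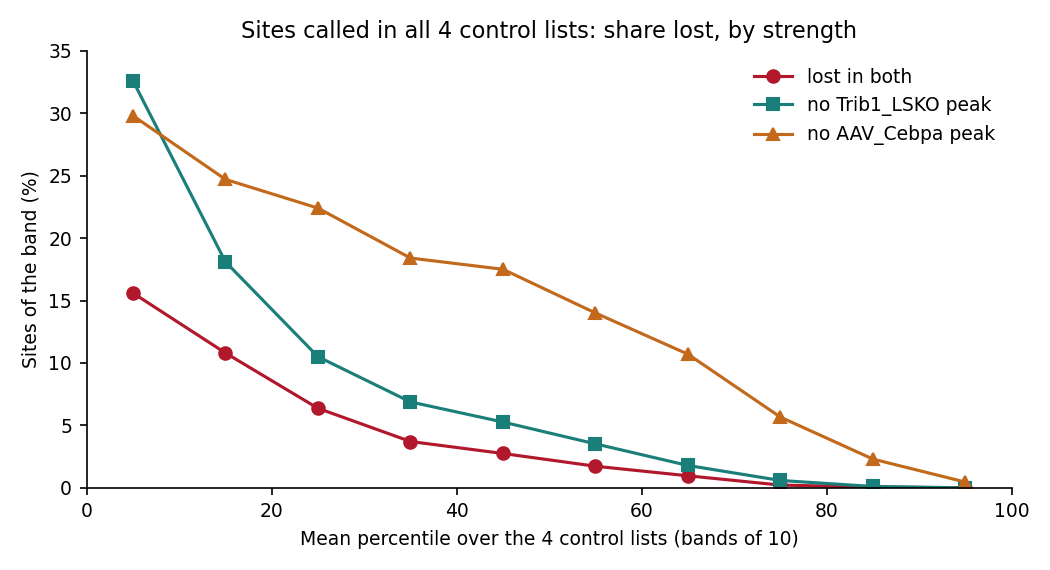
Share of the sites called in all 4 control lists that had no peak in either Trib1_LSKO list, in either AAV_Cebpa list, or in any of these 4 lists (y axis, percent), against the mean percentile of the site over the 4 control lists in bands of 10 (x axis). Loss in both ran between 15.6% of the weakest band and 0% of the strongest.

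Whether the 2 control groups ranked the lost sites alike was tested over their 4 libraries. These groups differ in genotype and vector dose, and only the Trib1_WT lists held peaks on chromosome Y. The source of a difference between them therefore cannot be told apart. The median percentile averaged 31.7 ± 2.03 in Trib1_WT and 34.5 ± 0.501 in AAV_Null (SD, n = 2 each), a difference of -2.81 points (exact two-sided permutation test, p = 0.33, the smallest that 2 against 2 libraries can give, so no difference could pass). For all sites called in the 4 control lists the difference was 2.81, with p = 0.33 in the same exact permutation test. The lists differ in length, which moves percentiles. Ranked only among the 31953 sites called in all 4 control lists, the lost sites had median percentiles of 11.5 and 12.4 in Trib1_WT, and 18.2 and 17.8 in AAV_Null. The difference was then -6.03, again with an exact permutation p of 0.33. The sites lost only in Trib1_LSKO gave -6.49 on this scale and -2.71 on the first, and all sites called in the 4 control lists gave -0.15 on this scale. Those lost only in AAV_Cebpa went the other way, at 0.92 on this scale and 4.52 on the first. On the first scale the difference for the sites lost in both turned to 0.57 without AAV_Null replicate 2.

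Across the 605 sites, signals of replicate libraries ran together, with a Spearman coefficient of 0.82 between the Trib1_WT lists and 0.73 between the AAV_Null lists. Between the 2 control groups it was 0.58 to 0.67. Over all sites called in the 4 control lists the corresponding values were 0.95, 0.92 and 0.81 to 0.86. These are correlations across sites of the same libraries, given as descriptions.

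Sites lost in Trib1_LSKO were often also lost in AAV_Cebpa. Of the 1105 sites that were called in all 4 control lists and lost in Trib1_LSKO, 605 (54.8%, 95% exact binomial interval 51.8% to 57.7%) were lost in AAV_Cebpa, against 1742 of 28134 sites (6.19%, 5.91% to 6.48%) with a peak in both Trib1_LSKO lists. Sites with a peak in only 1 of the Trib1_LSKO lists lay between these, at 1010 of 2714 (37.2%, 35.4% to 39.1%). These counts use the calls that chose the sites and are a description with no test. Intervals cover counting of sites, not variation between animals. The share of 54.8% was 73.3% when all lists were cut to the same length.

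The same order was present in each band of control strength. In the band 20 to 40, 57.4% of the sites lost in Trib1_LSKO were also lost in AAV_Cebpa, against 11.2% of those kept in both Trib1_LSKO lists. In the band 40 to 60 the shares were 50.9% and 10.0%, and in the band 60 to 80 they were 49.5% and 6.32%. The strongest band held only 5 sites lost in Trib1_LSKO, of which 3 were lost in AAV_Cebpa. Bands use the mean of the 4 control percentiles, and strength in the treated livers is unknown for a site with no peak there.

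**Figure D3:**
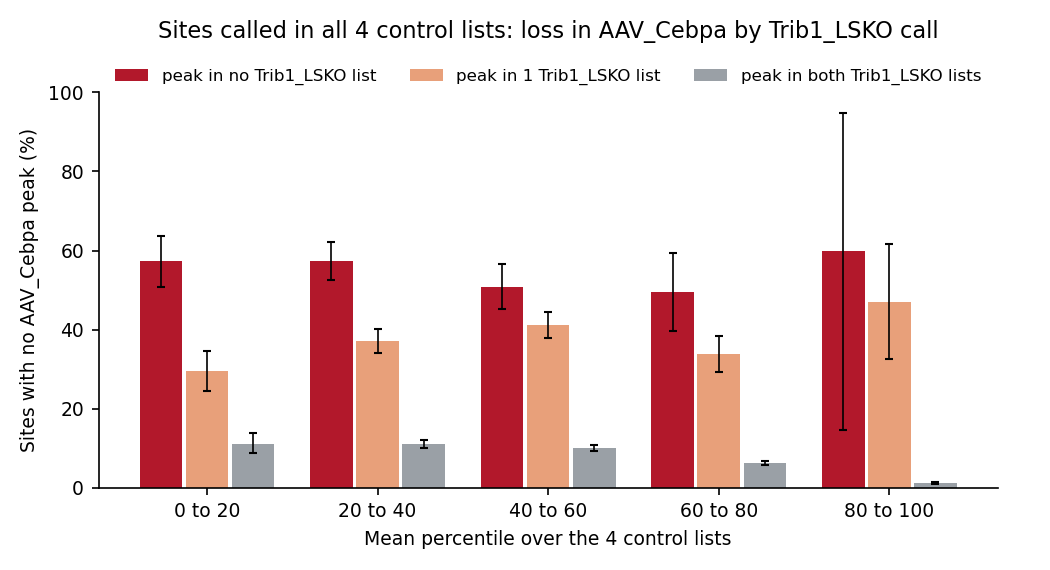
Share of sites with no AAV_Cebpa peak (y axis, percent), among sites called in all 4 control lists, by mean control percentile (x axis) and by the number of Trib1_LSKO lists that held the site. Error bars are 95% exact binomial intervals. In every band, sites without a Trib1_LSKO peak were the most often lost in AAV_Cebpa and sites in both Trib1_LSKO lists the least often, though the intervals of the first 2 classes overlapped in the band 80 to 100.

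The calls were also counted for each treated library. The lost sites are among those counted as missing in each, by the rule that chose them, so these counts are a description. Sites lost in Trib1_LSKO were missing in 76.1% of cases from AAV_Cebpa replicate 1 and in 58.1% from replicate 2, whose list is the longest. Sites kept in both Trib1_LSKO lists were missing in 12.1% and 7.61%. In the other direction, sites lost in AAV_Cebpa were missing in 41.9% of cases from Trib1_LSKO replicate 1 and in 24.2% from replicate 2. Sites kept in both AAV_Cebpa lists were missing in 3.57% and 2.40%.

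Many sites stood just outside the rule. Of the sites called in all 4 control lists, 1283 had a peak in exactly 1 treated list, and for 801 of these that list was Trib1_LSKO replicate 2. Trib1_LSKO replicate 1 was the only treated list for 209, AAV_Cebpa replicate 1 for 37 and AAV_Cebpa replicate 2 for 236. Their peaks in that 1 list were weak, with median percentiles of 19.1 to 32.3. A further 1253 sites were absent from all treated lists and from 1 control list, which was Trib1_WT replicate 1 in 486 cases. Membership thus depended on single libraries. Without Trib1_LSKO replicate 2, Trib1_WT replicate 1 or AAV_Null replicate 1, the rule gave 1408, 1092 and 912 sites.

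Control strength was higher for sites held by more treated lists, in uneven steps. Sites in none of the treated lists had a median mean control percentile of 31.9, those in 1 of 40.5, in 2 of 48.2, in 3 of 49.5 and in all 4 of 71.8.

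The strongest sites lost in both mostly had a treated peak close by. In all 3 with a mean percentile above 80, and in 5 of the 10 strongest, a site gained in both perturbations lay within 500 bp. These neighbours were called in all 4 treated lists and in no control list. Positions below are in mm9, 1-based. No gene annotation or sequence of that build was used here, so no gene or DNA sequence is given.

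The strongest lost site was chr2:34963432-34963652. It had no listed peak in Trib1_LSKO or AAV_Cebpa, against signals of 61.6 and 60.4 in Trib1_WT and 73.0 and 90.7 in AAV_Null. At a distance of 402 bp, the site chr2:34963820-34964056 had signals of 46.3 and 58.4 in Trib1_LSKO and 64.3 and 77.1 in AAV_Cebpa, and no control peak. Treated and control livers thus each had a strong peak at this locus, listed at different positions.

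The next was chr9:70985412-70985628, with no treated peak and signals of 60.9 and 55.7 in Trib1_WT and 59.3 and 72.4 in AAV_Null. Its neighbour at 265 bp, chr9:70985680-70985887, had 50.2 and 51.2 in Trib1_LSKO and 33.8 and 45.9 in AAV_Cebpa. The third, chr11:21269623-21269836, had no treated peak, against 54.9 and 45.8 in Trib1_WT and 61.6 and 67.2 in AAV_Null. It had a neighbour at 308 bp, chr11:21269313-21269528, with 51.5 and 42.3 in Trib1_LSKO and 48.7 and 47.6 in AAV_Cebpa. The same arrangement was seen at chr4:9022819-9023049, with a gained neighbour at 299 bp that had 56.0 and 52.4 in Trib1_LSKO and 46.6 and 66.4 in AAV_Cebpa, while the lost site had 57.5 and 46.6 in Trib1_WT and 37.3 and 31.3 in AAV_Null. It was also seen at chr13:64135366-64135570, with a neighbour at 406 bp. At the chromosome 13 locus the gained neighbour had mean percentile 84.0 in the treated lists, and the lost site 72.1 in the control lists.

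In all, 24 of the 605 sites (3.97%, 95% exact binomial interval 2.56% to 5.85%) had a site gained in both perturbations within 500 bp. The distances between midpoints ran between 242 and 413 bp, with a median of 315 bp. Of the 24318 sites called in all 8 lists, 9 (0.0370%) had such a neighbour, and of the 1742 sites lost only in AAV_Cebpa and the 227 lost only in Trib1_LSKO, none did. These sets are no fair comparison, since they hold a peak in 2 or 4 of the same treated lists and a list seldom holds a pair of peaks that near. Among the sites lost in both, the share was 0% at a mean percentile of 0 to 20, 1.21% at 20 to 40, 6.67% at 40 to 60 and 13.5% at 60 to 80. Over all 31953 sites called in the 4 control lists, which include these 605, it was 0.0827%, 0.0585%, 0.188% and 0.123% in the same bands. In total 36 of them (0.113%) had such a neighbour, and most of them hold treated peaks, so the same limit applies. No further site lost in both was added when the search was widened to 1000 bp.

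**Figure D4:**
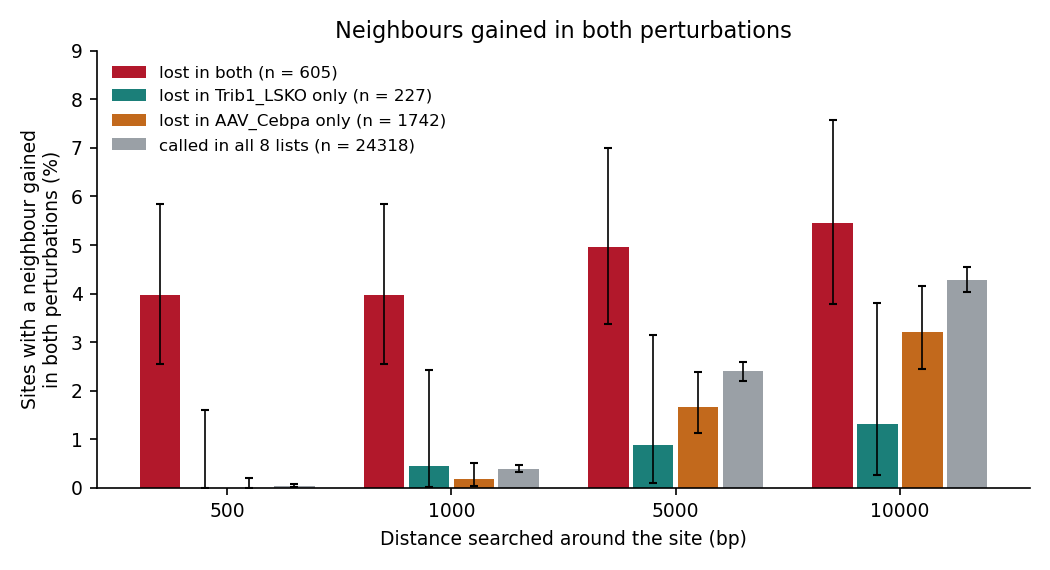
Share of sites with a neighbour gained in both perturbations (y axis, percent) within 500, 1000, 5000 or 10000 bp (x axis), for sites lost in both, sites of all 4 control lists lost in only 1 perturbation, and sites called in all 8 lists. Error bars are 95% exact binomial intervals over sites. At 500 bp the sites lost in both stood at 3.97%. The other sets have treated peaks of their own, and within a list only 0.811% to 1.03% of adjacent peaks lay 500 bp or less apart. Their shares at 500 bp are therefore no fair comparison, and the part of this spacing was not tested. At 10000 bp the sites lost in both stood at 5.45% and the sites called in all 8 lists at 4.28%, with overlapping intervals.

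Peaks within a list were rarely this close. In no list did 2 peaks start closer than 263 bp, and each list held only 12 to 28 pairs of adjacent peaks at 400 bp or less. Gaps of 500 bp or less made up 0.811% to 1.03% of the gaps in a list. The part of this spacing in the pairs was not tested. Whether binding moved between neighbouring positions, or both positions were bound in all livers and their order of strength changed, cannot be told apart from these lists. The search for gained neighbours was added after the data had been seen, and it uses the same lists that chose the sites, so it is a description with no test.

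**Figure D5:**
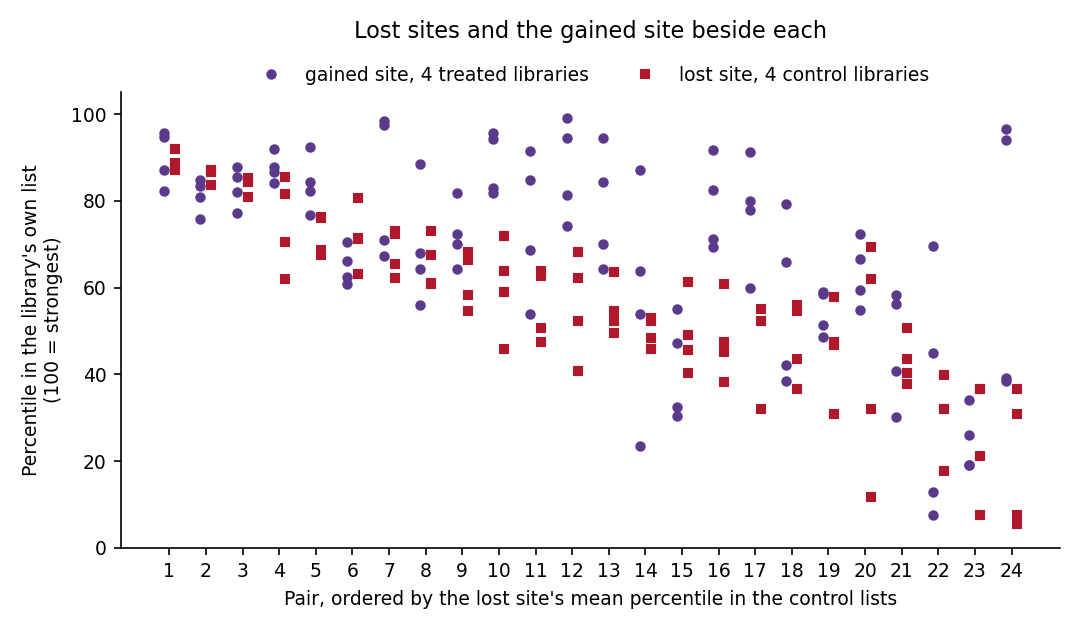
The 24 pairs of a site gained in both perturbations (circles, percentile in each of the 4 treated lists) and the site lost in both within 500 bp of it (squares, percentile in each of the 4 control lists), ordered by the mean percentile of the lost site. Percentiles are ranks in lists of different lengths. Gained sites ran between 7.66 and 99.2 and lost sites between 5.60 and 91.9.

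A wider group of 64 lost sites (10.6%) had a peak of at least 1 treated list within 500 bp, and 27 of these had one in all 4 treated lists. Counted by the distance between sites, the share was 10.4%, against 11.1% of the sites lost only in AAV_Cebpa, 4.41% of those lost only in Trib1_LSKO and 4.35% of all sites called in the 4 control lists. Their median mean percentile was 47.9, against 31.0 for the 541 sites with no treated peak that near. The share was 5 of 137 at a mean percentile of 0 to 20, 13 of 52 at 60 to 80, and 3 of 3 above 80. The percentage depends on the width set for a peak, at 2.12% with 400 bp windows and 13.5% with 100 bp windows. Of the 1034 sites without a Trib1_LSKO peak within 500 bp, 541 (52.3%) had no AAV_Cebpa peak within that distance. The share was 1564 of 28134 (5.56%) among sites with a peak in both Trib1_LSKO lists. The first class was set by distance and the second by calls at the site. The 541 are sites lost in both, chosen by the same calls, so these counts are a description with no test.

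The strongest lost site with no treated peak within 500 bp was chr11:5399358-5399600. It had no treated peak, against signals of 28.1 and 32.8 in Trib1_WT and 63.2 and 69.2 in AAV_Null. These were percentiles 62.9 and 69.7 of the Trib1_WT lists, and 85.2 and 86.0 of the AAV_Null lists. The nearest site with a treated peak lay 2332 bp away and was called in 1 treated list.

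The second was chr4:80587976-80588201, with no treated peak and signals of 43.5 and 45.4 in Trib1_WT and 39.6 and 38.5 in AAV_Null. It held 65 and 115 tags in Trib1_WT, and 52 and 59 in AAV_Null. The nearest treated peak was 7250 bp away, in a site called in 3 treated lists and all 4 control lists. Of the 7 other sites called in all 4 control lists within 50 kb, 3 were called in all 8 lists.

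A further 3 sites among the 10 strongest lay at 465 to 1350 bp from a treated peak. Site chr3:69152591-69152815 had signals of 41.5 and 34.7 in Trib1_WT and 37.3 and 47.0 in AAV_Null, and its neighbour at 465 bp was called in all 8 lists. Site chr5:101325335-101325559 stood at percentiles 61.1 and 67.8 in Trib1_WT and 82.7 and 82.5 in AAV_Null, and its neighbour at 1350 bp was called in the 4 treated lists and in no control list. Site chr12:104869592-104869837 had 32.8 and 30.0 in Trib1_WT and 49.5 and 43.1 in AAV_Null, with a neighbour at 817 bp called in the 4 treated lists and 2 control lists.

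The median distance to the nearest other lost site was 994742 bp, and 42 of the 605 (6.94%) had another within 50 kb. That share was 16.6% without Trib1_LSKO replicate 2, 12.5% without Trib1_WT replicate 1, 12.3% without AAV_Null replicate 1 and 11.1% without AAV_Cebpa replicate 2. Of the 2083 other sites of all 4 control lists within 50 kb of a lost site, 42 (2.02%) were lost in both. This was near the 1.79% around sites called in all 8 lists and the 1.89% of all sites called in the 4 control lists. The pairs below are therefore no evidence of clustering. At 100 kb there were 32 pairs and no larger group. The strongest pair was on chromosome 14, at 31699512 to 31699726 and 31736696 to 31736945, 37200 bp apart. The first of its sites stood at percentiles 49.6 and 47.4 in Trib1_WT and 76.2 and 81.7 in AAV_Null, and the second at 65.5 and 60.8 in Trib1_WT and 80.9 and 68.8 in AAV_Null. The 3 sites of all 4 control lists between them were all called in all 8 lists. The other 5 of the 8 sites between them were not called in all 4 control lists.

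The second pair was on chromosome 1, at 21028037 to 21028248 and 21059941 to 21060200, with mean percentiles of 67.9 and 52.8. Between them lay 2 sites, neither of them called in all 4 control lists. The third pair was on chromosome 14, at 41842603 to 41842837 and 41937995 to 41938219. The second of its sites stood at percentiles 85.5 and 83.8 in Trib1_WT, and 77.2 and 21.2 in AAV_Null. Of the 8 sites of all 4 control lists between the sites of that pair, 7 were called in all 8 lists.

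The fate of sites near a lost site was counted, without a test. Of the 479 other sites of all 4 control lists within 10 kb, 21 (4.38%) were lost in Trib1_LSKO, 59 (12.3%) in AAV_Cebpa and 8 (1.67%) in both. Around sites called in all 8 lists the shares were 2.93%, 10.3% and 1.62%. Around sites lost only in Trib1_LSKO they were 9.85%, 9.85% and 5.42%, and around sites lost only in AAV_Cebpa 3.08%, 14.1% and 1.89%. The median mean percentile of the neighbours was 64.4 near sites lost in both and 70.7 near sites called in all 8 lists. A further site of all 4 control lists lay within 10 kb of 53.4% of the lost sites, against 56.8% of the sites called in all 8 lists.

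The lost sites occurred on all autosomes and on chromosome X. The share of sites of all 4 control lists that were lost in both was highest on chromosome 4, with 53 of 1993 (2.66%, 95% exact binomial interval 2.00% to 3.46%), and on X, with 17 of 679 (2.50%, 1.47% to 3.98%). It was lowest on chromosome 16, with 14 of 1219 (1.15%, 0.629% to 1.92%). The interval of chromosome 4 lay above the overall share of 1.89%, 1 of 20 chromosomes viewed without adjustment. Chromosome Y could hold none, since neither AAV_Null list had a peak there.

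Called positions spread more widely at sites lost in both than at sites called in all 8 lists. The midpoints of the 4 control peaks spanned a median of 44.0 bp at lost sites and 24.0 bp at sites called in all 8 lists. Weak sites had wider spans in general, but within the same band of strength the lost sites still had the wider one, at 47.0 and 37.0 bp for a mean percentile of 20 to 40, 39 and 31 bp at 40 to 60, and 28 and 24 bp at 60 to 80. Sites lost in AAV_Cebpa only had 44, 38 and 33 bp in the same bands, and sites lost in Trib1_LSKO only had 40.5, 32 and 24 bp. These differences were not tested. Strength was not equal within a band, where lost sites lay toward the weaker end. Of the 52 lost sites at 60 to 80, 42 lay at 60 to 70, against 3265 of 7209 sites called in all 8 lists. The part of this remaining gap in strength in the wider spans was not tested.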

How the data were processed

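C/EBPα ChIP-seq of frozen mouse liver, crosslinked in 1% formaldehyde, gave 1 peak list for each of 8 libraries. The authors deposited a position and 1 signal value per 200 bp peak. The submitters' processing notes name Bowtie, HOMER and build mm9. Their versions, the peak threshold, any input library, duplicate handling and the scaling total were not given in the sources used here. Percentiles, tag steps (tolerance 0.051), sites and distances between midpoints were computed with Python 3.11.15, NumPy and SciPy, with the join tested on simulated lists. Replicate lists shared 1.78% to 2.30% of exact positions. No test across sites was run. The control comparison used the exact two-sided permutation test. The members, lists and tests were chosen with earlier results of these data known. Sites named are the 10 with the highest mean control percentile and the 3 groups with the most members within 100 kb, with ties ordered by mean percentile; the 24 neighbouring pairs and the 500 bp comparison were chosen after their values were seen. Planned results on genes, cell type markers and motifs need mm9 annotation or sequence, not used here, so the tissue label was not checked against markers. P-values and spreads between replicates may be technical.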

Additional observations from a re-analysis of the deposited data

How the results depend on the processing

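Of 140 values recomputed under alternatives, 88 were labelled as kept in direction or near the reported value, 50 as moved and 2 as turned round. The first label was wide. It took in 845 sites without AAV_Cebpa replicate 2, against 605. It also took in a difference of -5.59 without Trib1_WT replicate 2, against -2.81, which has the same sign. The 100 bp windows and the 100 bp overlap gave the same count (607) and share (1.93%), yet were counted as separate alternatives. The number of sites lost in both (605) was 541 to 820 with other windows or overlap, equal list lengths, a common signal minimum of 6.10, autosomes only or no treated peak within 500 bp. It was 381 with the strongest 50% of each list and 66 when control peaks had to be in the strongest 50% while any treated peak counted (the mixed rule). The share of 1.89% was 1.74% with 400 bp windows, 2.14%, 0.371% and 2.70% with the strongest 50%, the mixed rule and equal lengths, and 1.69% with no treated peak within 500 bp. The mean of the median control percentiles (33.1) was 61.7 and 65.0 under the 2 rules on the strongest 50%. Those rules keep only control peaks in the strongest 50%, so this rise was fixed in advance. The difference of Trib1_WT minus AAV_Null was 1.17 under the mixed rule. The share with a treated peak within 500 bp (10.6%) was 13.5%, 2.12% and 13.3% with 100 bp windows, 400 bp windows and 100 bp overlap, 7.09%, 28.8% and 7.93% with the strongest 50%, the mixed rule and equal lengths, and 0% and 21.8% at 200 and 1000 bp. The 0% at 200 bp follows from the joining rule, since a 200 bp peak nearer than that would overlap the site. The share within 50 kb of another lost site (6.94%) was 0% under the mixed rule, 11.5% with equal lengths, and 1.32% and 10.6% at 10 and 100 kb. The share lost in AAV_Cebpa among sites lost in Trib1_LSKO (54.8%) was 48.5% and 73.3% under the mixed rule and equal lengths. The share with a gained neighbour (3.97%) was 0% with 400 bp windows, which join such neighbours, and 13.6% under the mixed rule.

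Leaving out 1 library at a time loosens the rule for its group. It gave 643 to 1408 sites, shares of 2.01% to 4.41%, mean median percentiles of 29.9 to 39.3, differences of -5.59 to 0.57, 8.52% to 12.0% with a treated peak within 500 bp, 7.15% to 16.6% within 50 kb of another lost site, 43.5% to 76.3% lost in AAV_Cebpa, and 2.96% to 5.16% with a gained neighbour. The highest counts came without Trib1_LSKO replicate 2 (1408), Trib1_WT replicate 1 (1092) and AAV_Null replicate 1 (912). The share within 50 kb was 16.6%, 12.5% and 12.3% without these, and 11.1% without AAV_Cebpa replicate 2. Alternatives for the gained neighbours and for joint loss were chosen after seeing the data, and planned ones on genes, motifs and base composition were not run. The cause of the other changes was not tested. No paired analysis was possible because site calls and counts come from no model, and a rule that needs both libraries of a group is the same for any pairing of replicate numbers. The weakest listed peaks held 7 to 12 tags, and the part of depth in these calls was not tested.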

Other observations

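All 4 lists of the Trib1 experiment held peaks on chromosome Y, 9 to 14 each, and none of the 4 lists of the vector experiment did. The labels give no sex.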
